A study of Mus musculus with 2 samples.

Results

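The *Dlx* homeobox genes *Dlx1*, *Dlx2*, *Dlx3*, *Dlx4*, *Dlx5* and *Dlx6* were followed through RNA-seq of mouse ES cells and E10.5 forebrain. They were selected by symbol, and all 6 were found among the 29311 genes listed in both samples. The ES cells were of the E14 strain with the label WT, and the methods of the study describe feeder-free culture in medium with serum and LIF. The forebrain cells came from WT embryos of the B6CBAF1/J strain at stage E10.5, and the methods describe isolation of RNA from single embryos. Each condition was covered by 1 library without replicates, so strain, RNA extraction reagent (Trizol or Trizol LS) and cell type cannot be told apart. No test between samples was possible, and the 95% intervals given here cover the counting of reads only.

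*Dlx* genes encode homeodomain transcription factors related to *Drosophila* Distal-less. In mammals they lie in convergently transcribed bigene pairs, *Dlx1* with *Dlx2*, *Dlx3* with *Dlx4* and *Dlx5* with *Dlx6*, and each pair is linked to a *Hox* cluster. *Dlx1*, *Dlx2*, *Dlx5* and *Dlx6* are known for their activity in the subpallium, where they act in the differentiation and migration of GABAergic neurons. *Dlx3* and *Dlx4* are better known from surface ectoderm, placenta, teeth and branchial arches, and *Dlx5* and *Dlx6* also pattern the lower jaw.

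To show how alike the members are, the final 63 bases of each homeobox, which include the code for the third helix that contacts DNA, are given 5' to 3' on the coding strand as annotated on NCBIM37. Capitals mark the bases that differ from the other gene of the same bigene pair.
Dlx1: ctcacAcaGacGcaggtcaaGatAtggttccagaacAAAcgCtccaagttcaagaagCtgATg
Dlx2: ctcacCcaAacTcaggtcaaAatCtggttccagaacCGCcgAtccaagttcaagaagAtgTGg
Dlx3: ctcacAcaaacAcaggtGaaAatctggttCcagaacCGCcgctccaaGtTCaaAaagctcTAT
Dlx4: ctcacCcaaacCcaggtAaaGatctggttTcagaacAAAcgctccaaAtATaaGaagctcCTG
Dlx5: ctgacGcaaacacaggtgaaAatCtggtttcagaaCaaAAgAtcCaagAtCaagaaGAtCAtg
Dlx6: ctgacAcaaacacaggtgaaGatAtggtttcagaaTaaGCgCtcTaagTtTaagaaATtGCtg
Over the whole homeobox of 180 bases, *Dlx1* and *Dlx2* differed at 47 positions, *Dlx3* and *Dlx4* at 51 and *Dlx5* and *Dlx6* at 48. Identity was 73.9%, 71.7% and 73.3%, respectively, and the highest identity of the 15 possible combinations was the 81.7% of *Dlx2* and *Dlx3*, which are not neighbours. The longest run of bases shared exactly by the annotated transcripts of any combination was 23 bp. This is shorter than the 100 bp read length given in the labels, so that a full read could not match 2 members equally well.

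The values are the RPKM deposited by the authors, a number of reads divided by the exonic length of the gene with a scaling per library. Most low values fell near whole multiples of 1 read (66.8% within 0.1 read in ES cells and 69.3% in forebrain), from which 42778664 reads on genes were inferred in ES cells and 59786661 in forebrain. On this basis, a deposited RPKM of 52.2 in ES cells or of 49.0 in forebrain equals 1 read per kb per 1000000 reads on genes. The median RPKM of all listed genes was 48.9 in ES cells and 62.4 in forebrain. The ES cell markers *Pou5f1*, *Nanog*, *Zfp42*, *Esrrb*, *Klf4* and *Tdgf1* had RPKM values between 899 and 11505 in ES cells, compared with 4.72 to 58.9 in forebrain. The forebrain markers *Six3*, *Otx2*, *Lhx2*, *Emx2* and *Rax* had 15.9 to 989 in forebrain and 0 to 78.5 in ES cells, so both samples carried the markers of their labels.

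*Dlx1* and *Dlx2*, the pair on chromosome 2, had the highest levels of the family in E10.5 forebrain. *Dlx1* (ENSMUSG00000041911, mm9 chromosome 2, 71366170 to 71372038, plus strand, 5.40 kb of exon) had an RPKM of 2.26 in ES cells from 10 reads (1.09 to 4.16). In forebrain it had 256 from 1684 reads (244 to 268), which is 5.22 reads per kb per 1000000 reads. *Dlx1* was thus far higher in forebrain, by 113-fold on the RPKM (61.3 to 236), and the intervals of both samples were well apart.

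*Dlx2* (ENSMUSG00000023391, 71381466 to 71384811, minus strand, 2.85 kb of exon) had an RPKM of 0.43 in ES cells from 1 read (0.0108 to 2.38). In forebrain the RPKM was 65.0 from 226 reads (56.7 to 73.9). The ratio was 151, with a wide interval of 26.9 to 6015 because of the 1 read in ES cells. In a mixed tissue, a low level in many cells and a high level in few cells cannot be told apart, nor can fewer cells of a type and less RNA per cell.

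*Dlx5* and *Dlx6*, on chromosome 6, were the members without any read in ES cells. *Dlx5* (ENSMUSG00000029755, chromosome 6, 6827805 to 6832085, minus strand, 1.42 kb of exon) was listed at 0 in ES cells. Its interval there reached an RPKM of 3.17, and 3 reads, taken as the floor, would give 2.57. In forebrain *Dlx5* had an RPKM of 36.3 from 63 reads (27.9 to 46.4). This was 14.1 times the floor in ES cells. *Dlx6* (ENSMUSG00000029754, 6813334 to 6818568, plus strand, 2.38 kb of exon) was also listed at 0 in ES cells, where the floor corresponds to an RPKM of 1.54 and the interval reached 1.90. In forebrain *Dlx6* had an RPKM of 34.3 from 100 reads (28.1 to 41.9), which was 22.3 times the floor in ES cells. Lower levels of these genes were not detectable in ES cells at this depth.

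*Dlx3* and *Dlx4*, on chromosome 11, had few reads in both samples. *Dlx3* (ENSMUSG00000001510, chromosome 11, 94981403 to 94986610, plus strand, 2.64 kb of exon) had an RPKM of 1.39 in ES cells from 3 reads (0.286 to 4.06). In forebrain *Dlx3* had an RPKM of 5.28 from 17 reads (3.08 to 8.45). The ratio of 3.80 had an interval of 1.10 to 20.2, so the higher value in forebrain lay just outside the counting error, although the intervals of the levels overlapped. *Dlx4* (ENSMUSG00000020871, 95001770 to 95007577, minus strand, 3.26 kb of exon) had an RPKM of 0.37 in ES cells from 1 read (0.00948 to 2.09) and of 1.01 in forebrain from 4 reads (0.274 to 2.57). Its ratio of 2.73 (0.266 to 132) was within the counting error.

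**Figure D1:**
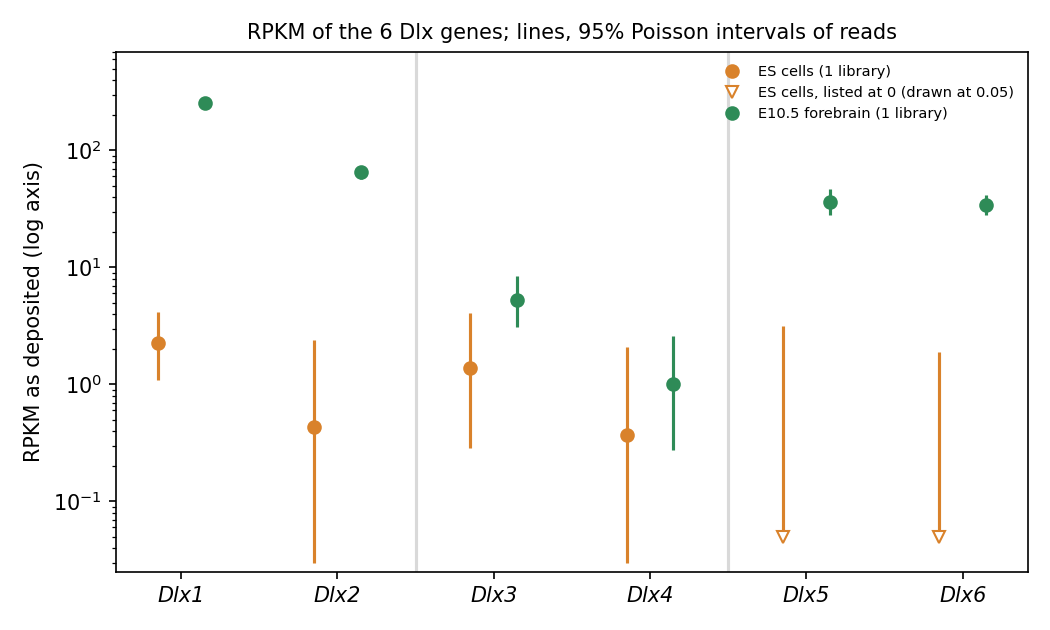
RPKM of the *Dlx* genes as deposited (log axis) in ES cells (orange) and E10.5 forebrain (green), 1 library each. Lines are 95% Poisson intervals of the inferred reads, cut off at the lower edge of the plot, and open triangles are genes listed at 0. *Dlx1*, *Dlx2*, *Dlx5* and *Dlx6* lie at 34.3 to 256 in forebrain, whereas the intervals of both samples overlap for *Dlx3* and *Dlx4*.

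Within forebrain the levels followed the order *Dlx1*, *Dlx2*, *Dlx5*, *Dlx6*, *Dlx3* and *Dlx4*. The intervals of *Dlx5* and *Dlx6* overlapped and those of all other neighbours in this order did not. *Dlx1* lay at percentile 67.2 of the listed genes, *Dlx2* at 50.4, *Dlx5* at 44.6, *Dlx6* at 43.9, *Dlx3* at 26.6 and *Dlx4* at 15.5. In ES cells the order was *Dlx1*, *Dlx3*, *Dlx2* and *Dlx4*, followed by *Dlx5* and *Dlx6* at 0, and the intervals of every gene overlapped with those of the next. The highest member in ES cells, *Dlx1*, lay at percentile 21.3.

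At least 3 reads were found for 2 of the 6 members in ES cells (*Dlx1* and *Dlx3*), compared with 76.8% of all listed genes. In forebrain this held for 6 of 6, compared with 79.2% of all genes. The samples were then compared on log2(RPKM + 1), where changes of low genes appear smaller than they are, and a 4-fold difference was taken as the limit. On this scale, 4 of the 6 members were higher in forebrain by at least 4-fold, a limit that 14.4% of all listed genes passed in this direction. No member passed it in the direction of ES cells, as 11.3% of all genes did. The difference was 6.30 for *Dlx1*, 5.53 for *Dlx2*, 5.22 for *Dlx5* and 5.14 for *Dlx6*, which are percentiles 98.9, 98.2, 97.7 and 97.6 of all differences. *Dlx3* and *Dlx4*, with 1.39 and 0.55, lay within the limit at percentiles 79.6 and 65.0. The median difference of all listed genes was 0.01.

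**Figure D2:**
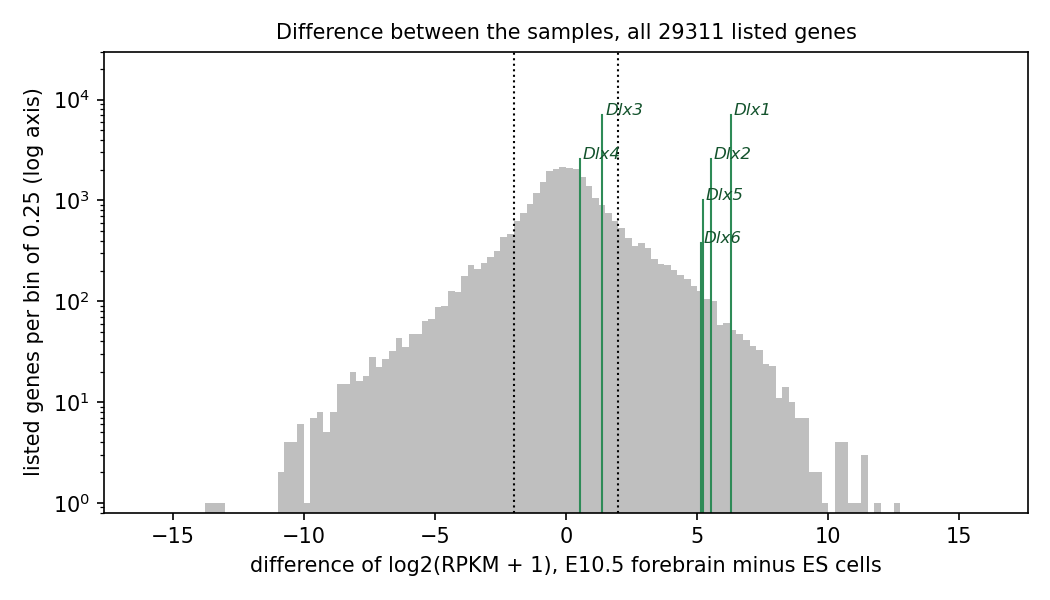
Number of listed genes (log axis) by their difference of log2(RPKM + 1), E10.5 forebrain minus ES cells, in bins of 0.25. Green lines mark the *Dlx* genes and dotted lines the 4-fold limits. *Dlx1*, *Dlx2*, *Dlx5* and *Dlx6* lie beyond 5 in the right tail, *Dlx3* and *Dlx4* between the limits.

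The 3 bigene pairs were next compared with each other. Summed over a pair, the RPKM of *Dlx1* and *Dlx2* was 2.69 in ES cells and 320.6 in forebrain, or 80.7% of the family in the latter. *Dlx5* and *Dlx6* summed to 0 and 70.6, and contributed 17.8% of the forebrain signal. The pair of *Dlx3* and *Dlx4* summed to 1.76 and 6.29, and contributed 1.58% in forebrain. Over the family, 15 reads in ES cells faced 2094 in forebrain, and the summed RPKM of 4.45 and 397.5 gave a ratio of 89.3.

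The pairs differed in how even the RPKM values of their genes were. In forebrain the RPKM of *Dlx1* was 3.93 times that of *Dlx2* (3.43 to 4.55). For *Dlx3* over *Dlx4* the ratio was 5.23, from few reads (1.71 to 21.5). *Dlx5* and *Dlx6* had a ratio of 1.06 (0.755 to 1.46), so that a difference between them was not detectable at this depth. The interval for *Dlx1* over *Dlx2* lay wholly above that for *Dlx5* over *Dlx6*. In ES cells, *Dlx1* over *Dlx2* gave 5.26 (0.752 to 230) and *Dlx3* over *Dlx4* gave 3.76 (0.298 to 195), and neither pair could be told from equal levels. The genes of a pair were separated by 9.43 kb (*Dlx1* and *Dlx2*), 15.2 kb (*Dlx3* and *Dlx4*) and 9.24 kb (*Dlx5* and *Dlx6*).

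Each locus also holds a non-coding transcript, and those at the *Dlx1* and *Dlx6* genes are known as long non-coding RNAs of the ventral forebrain. *Dlx6os1* (also called Evf2, ENSMUSG00000090063, chromosome 6, 6770189 to 6819533, minus strand) spans *Dlx6* on the opposite strand without sharing exonic bases. *Dlx6os1* had no read in ES cells and an RPKM of 290 in forebrain from 1724 reads, which was 385 times the floor in ES cells. Its RPKM in forebrain was 8.44 times that of *Dlx6* (6.87 to 10.4), and *Dlx6os1*, *Dlx6* and *Dlx5* were alike in having no read in ES cells.

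*Dlx1as* (ENSMUSG00000084946, chromosome 2, 71354511 to 71375948, minus strand) runs antisense to *Dlx1*. *Dlx1as* had an RPKM of 14.2 in ES cells from 19 reads and of 210 in forebrain from 418 reads, a 14.8-fold difference (9.33 to 24.8). In ES cells the RPKM of *Dlx1as* was 6.30 times that of *Dlx1* (2.78 to 15.1), but in forebrain it was 0.822 times (0.736 to 0.915). The RPKM of *Dlx1as* was thus above that of *Dlx1* in ES cells and below it in forebrain, beyond the counting error. The exons of *Dlx1as* and *Dlx1* share 335 bases, and the libraries were strand-specific, but whether strand was used in counting is not given in the sources used here. At the mean density of reads on *Dlx1*, these bases would hold 105 reads in forebrain and 0.621 in ES cells. The span of *Dlx1as* also overlaps that of *Metap1d* (71291333 to 71363251, plus strand), which had 468 reads in ES cells. Exonic bases shared with *Metap1d* were not counted, and its part in the *Dlx1as* values was not tested. At the *Dlx3* and *Dlx4* locus, *A730090H04Rik* (chromosome 11, 95006367 to 95020361, plus strand) shares 79 exonic bases with *Dlx4*. It had an RPKM of 4.40 in ES cells from 6 reads and of 0.99 in forebrain from 2 reads, with a ratio of forebrain over ES cells of 0.225 (0.0221 to 1.25), which is within the counting error.

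*Dlx1as* and *Dlx6os1* were higher in forebrain by the 4-fold limit, and for this reason their 250 bases upstream of the annotated start on NCBIM37 were read together with those of *Dlx2*, which shares a locus with *Dlx1as*. The window of *A730090H04Rik* was not examined. The windows are chr2:71375949-71376198 for *Dlx1as*, chr6:6819534-6819783 for *Dlx6os1* and chr2:71384812-71385061 for *Dlx2*, all given 5' to 3' on the minus strand. Capitals mark TAATTA, a core motif bound by many homeodomain proteins including those of the DLX family.
Dlx1as: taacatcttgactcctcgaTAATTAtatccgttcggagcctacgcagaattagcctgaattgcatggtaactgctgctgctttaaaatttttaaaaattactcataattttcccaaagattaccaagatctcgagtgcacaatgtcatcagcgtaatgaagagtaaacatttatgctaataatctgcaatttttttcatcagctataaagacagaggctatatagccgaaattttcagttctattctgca
Dlx6os1: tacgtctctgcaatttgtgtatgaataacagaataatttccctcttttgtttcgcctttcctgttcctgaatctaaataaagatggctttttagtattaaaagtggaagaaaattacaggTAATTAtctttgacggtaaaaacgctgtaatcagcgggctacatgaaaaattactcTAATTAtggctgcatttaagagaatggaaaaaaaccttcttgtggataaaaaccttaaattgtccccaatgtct
Dlx2: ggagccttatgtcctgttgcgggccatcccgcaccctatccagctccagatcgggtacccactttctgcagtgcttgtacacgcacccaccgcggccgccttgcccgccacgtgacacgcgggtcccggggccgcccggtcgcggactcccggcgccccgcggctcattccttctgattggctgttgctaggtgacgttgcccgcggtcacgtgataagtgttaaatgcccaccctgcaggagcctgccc
TAATTA reads the same on both strands. It was found 1 time upstream of *Dlx1as*, ending 226 bases before the annotated start, and 2 times upstream of *Dlx6os1*, ending 125 and 69 bases before it. It was absent from the windows of all 6 *Dlx* genes. Among 19616 windows of listed protein-coding genes, 3.80% held the motif. Among 3226 windows of lincRNA, antisense and processed transcript genes, 4.65% held it and 0.310% held 2 or more. The windows of *Dlx1as* and *Dlx6os1* were AT-rich, with 34.8% and 33.2% GC compared with a median of 51.6% for such genes. The E-box CAGCTG, which also reads the same on both strands, was found in 12.3% of the protein-coding windows and in none of the *Dlx* genes or *Dlx1as* and *Dlx6os1*. The *Dlx* windows themselves ranged from 44.0% GC with 3 CpG (*Dlx1*) to 66.4% with 24 CpG (*Dlx2*), and a match of a motif is a description of the sequence only.

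The 2 nearest protein-coding genes on either side of each pair were then examined. Of these 12 neighbours, 1 passed the 4-fold limit towards forebrain and 2 towards ES cells, compared with 14.4% and 11.3% of all listed genes. On the lower side of *Dlx1*, *Metap1d*, a mitochondrial aminopeptidase gene at 2.92 kb, had an RPKM of 126 in ES cells and 220 in forebrain, a ratio of 1.75 (1.57 to 1.95). Beyond it, the histone acetyltransferase gene *Hat1* had 9757 and 3403, with a difference of -1.52 on log2(RPKM + 1). On the other side, *Gm1631* had an RPKM of 124 in ES cells and was listed at 0 in forebrain. The integrin gene *Itga6* had 1079 and 766, a ratio of 0.710 (0.688 to 0.732). *Gm1631* was the neighbour of this pair that passed the limit, towards ES cells.

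Around *Dlx5* and *Dlx6*, the proteasome subunit gene *Shfm1* had an RPKM of 6644 in ES cells and 10895 in forebrain, and *Acn9*, an assembly factor of succinate dehydrogenase, had 49.3 and 103. The mitochondrial carrier gene *Slc25a13* was lower in forebrain, with 3796 and 1350. *Tac1*, which encodes the precursor of substance P, lies 673 kb from the pair. It was listed at 0 in ES cells and had 43.2 in forebrain from 54 reads, which was 12.2 times the floor in ES cells. *Tac1* passed the limit in the same direction as *Dlx5* and *Dlx6*, with a difference of 5.46. Around *Dlx3* and *Dlx4*, the integrin gene *Itga3* had an RPKM of 223 in ES cells and 110 in forebrain, and the acetyltransferase gene *Myst2* had 2180 and 841. The kinase gene *Pdk2* had 8.88 and 36.0, just within the limit at a difference of 1.90. The tachykinin gene *Tac4* had 79.0 in ES cells and 5.24 in forebrain, and was lower in forebrain by the 4-fold limit. Each of these 4 neighbours had more reads than *Dlx3* or *Dlx4* in ES cells, from 23 for *Pdk2* to 9884 for *Myst2*.

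**Figure D3:**
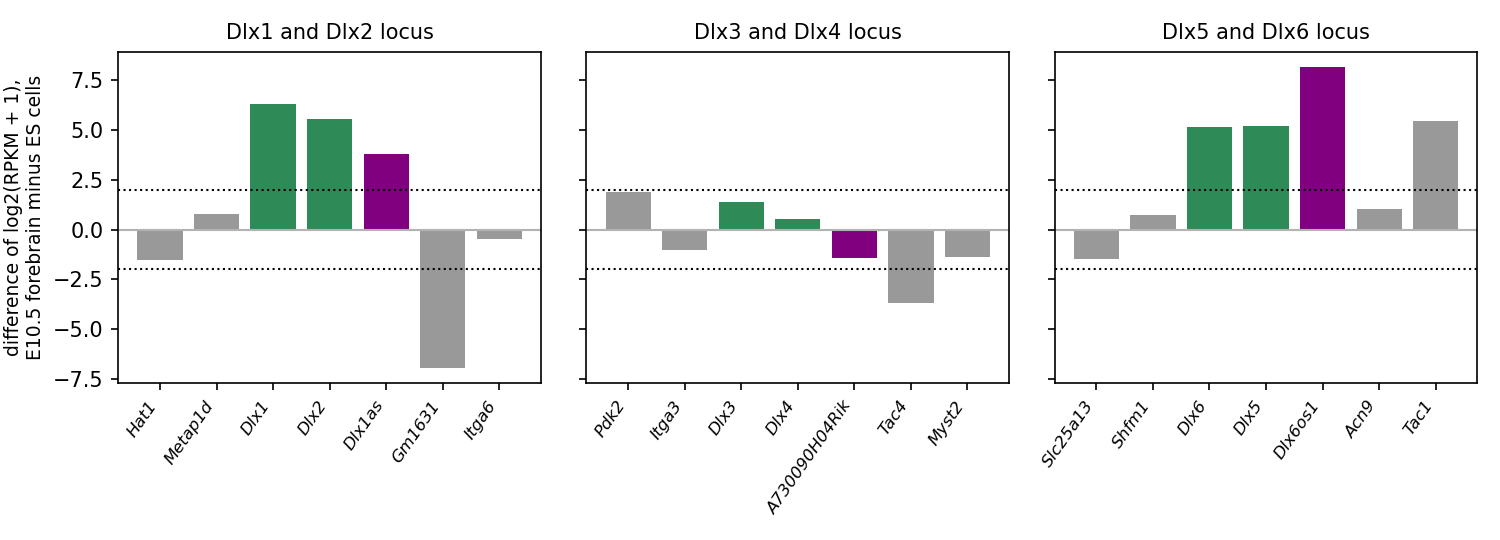
Difference of log2(RPKM + 1), E10.5 forebrain minus ES cells, for the genes of each *Dlx* locus, with 1 library per sample. Green bars are *Dlx* genes, purple bars non-coding genes that overlap the pair (drawn next to it, not at their position) and grey bars the 2 nearest protein-coding genes on each side. Dotted lines are the 4-fold limits. *Dlx1*, *Dlx2*, *Dlx1as*, *Dlx5*, *Dlx6*, *Dlx6os1* and *Tac1* lie above the upper one, and *Gm1631* and *Tac4* below the lower one.

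Genes that act upstream of *Dlx* genes in the subpallium were considered next, in a list that also holds other regulators of the ventral forebrain. Of 8 listed, 7 passed the 4-fold limit towards forebrain and 0 towards ES cells, with a median difference of 5.56 compared with 0.01 for all genes. For this list and each list below, the shares over all listed genes are 14.4% towards forebrain and 11.3% towards ES cells. The homeobox gene *Gsx2*, which acts upstream of *Dlx* genes in the lateral ganglionic eminence, had an RPKM of 1.36 in ES cells and 60.0 in forebrain, and its paralog *Gsx1* had 1.38 and 15.7. *Nkx2-1*, a regulator of the medial ganglionic eminence, was listed at 0 in ES cells and had 85.0 in forebrain. *Olig2*, *Vax1* and the ventral signal *Shh* were also listed at 0 in ES cells, with 198, 110 and 165 in forebrain. *Gli1*, a target of Shh signalling, had 45.7 and 147, and was the member within the limit. The RPKM of *Olig2*, *Vax1*, *Nkx2-1* and *Shh* in forebrain thus lay between those of *Dlx2* and *Dlx1*.

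Among 21 genes downstream of *Dlx* genes or involved in GABAergic differentiation, 16 passed the limit towards forebrain, 1 towards ES cells and 4 neither (median difference 4.35). The LIM-homeobox genes *Lhx8* and *Lhx6* had an RPKM of 0 and 12.0 in ES cells, and 185 and 51.7 in forebrain. The largest differences further included *Pou3f4*, listed at 0 in ES cells with 540 in forebrain, and *Rarb*, a retinoic acid receptor, with 8.34 and 837. The glutamate decarboxylase genes, whose products make GABA, went in opposite directions. *Gad2* had an RPKM of 1.19 in ES cells and 58.2 in forebrain, whereas *Gad1* had 81.9 in ES cells from 512 reads and 13.9 in forebrain from 130 reads, and was the member that passed the limit towards ES cells. Of the zinc finger genes, *Sp8* had 4.88 and 119, while *Sp9* had 15.9 and 21.9 and did not pass the limit.

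Markers of later interneurons were examined next. Of 7 genes, 6 were listed, and 3 of these passed the limit towards forebrain and 1 towards ES cells (median difference 1.48). *Reln* had an RPKM of 3.51 in ES cells and 107 in forebrain, and *Sst*, the somatostatin gene, had 2.04 from 1 read and 23.2 from 17 reads. *Calb1* had 3.78 and 19.7, and *Npy* had 19.4 in ES cells and 2.89 in forebrain from 2 reads. *Calb2* had the highest values of the list, 115 in ES cells and 131 in forebrain, and did not pass the limit. *Pvalb* had 1 read in forebrain, below the floor of 3 reads.

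The forebrain sample also held the pallium, where *Dlx* genes are normally not active. Of 11 pallial genes, 10 passed the limit towards forebrain and 0 towards ES cells (median difference 5.58). In forebrain the RPKM was 877 for *Lhx2*, 400 for *Neurog2*, 269 for *Emx2* and 212 for *Emx1*, compared with 0, 0.55, 0.91 and 1.12 in ES cells. These values of *Lhx2* and *Neurog2* were higher than that of *Dlx1* in the same library, that of *Emx2* could not be told from it as the intervals overlapped, and that of *Emx1* was higher than that of *Dlx2*.

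Genes of the *Dlx* family are also active outside the brain, so genes of such tissues were examined. Of 6 head mesenchyme markers, 6 passed the limit towards forebrain (median difference 6.71). Their summed RPKM was 43.1 in ES cells and 5257 in forebrain, with a range of 400 to 1556 per gene in the latter and no marker at 0. *Alx4*, *Alx1*, *Twist1* and *Prrx1* had 767, 1448, 1556 and 400 in forebrain. Of 11 branchial arch genes, 7 passed the limit towards forebrain and 1 towards ES cells (median difference 3.16). *Nr2f1*, *Ednra* and *Msx1* had 983, 248 and 1492 in forebrain, and *Gbx2* had 460 in ES cells and 8.98 in forebrain. *Hand2* and *Hand1*, which depend on or act with *Dlx5* and *Dlx6* in the mandibular arch, had 0.73 and 1.23 in forebrain from 2 and 3 reads. *Msx2*, *Gsc* and *Barx1* of the same list had 243, 85.8 and 78.2 in forebrain, and were among those that passed the limit towards forebrain. Which cells these transcripts came from was not tested, nor was the part of head mesenchyme in the *Dlx* values of the forebrain sample.

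Of 7 placode and ectoderm genes, 3 passed the limit towards forebrain and 1 towards ES cells (median difference 1.10). *Tcfap2b*, *Eya1* and *Gata3* had an RPKM of 205, 422 and 41.1 in forebrain, compared with 0.38, 98.0 and 0.92 in ES cells, and *Foxi3* had 63.9 in ES cells and 1.92 in forebrain. Of 6 surface ectoderm markers, 1 passed the limit towards forebrain and 2 towards ES cells (median difference -0.06), where 14.4% and 11.3% of all listed genes did. Their summed RPKM was 2176 in ES cells and 596.5 in forebrain. Values per gene lay between 0.15 and 1685 in ES cells and between 14.2 and 206 in forebrain, with no marker at 0 in either. *Trp63*, a defining gene of stratified epithelia, had 0.15 in ES cells from 1 read and 20.7 in forebrain from 212 reads, and the keratin gene *Krt18* had 67.7 and 190. *Epcam* and *Grhl3* had 1685 and 296 in ES cells, and 206 and 36.9 in forebrain. *Krt14* had 18.6 and 14.2. The markers of surface ectoderm thus went in both directions, and their part in the *Dlx3* values was not tested.

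Trophoblast and osteoblast genes, which belong to tissues where *Dlx3*, *Dlx4* and *Dlx5* have known functions, were considered as well. Of 10 trophoblast genes, 8 were listed, and 2 of these passed the limit towards forebrain and 2 towards ES cells (median difference 0.36), where 14.4% and 11.3% of all listed genes did. *Cdx2* had an RPKM of 272 in ES cells and 0 in forebrain, *Ascl2* had 72.7 and 6.61, *Krt7* had 0.25 and 23.1, and *Gata2* had 7.65 and 109. Of 7 osteoblast genes, 2 passed the limit in each direction (median difference 1.39). *Spp1* and *Alpl* had 8157 and 1323 in ES cells, and 22.9 and 95.5 in forebrain. *Col1a1* had 13.9 in ES cells and 514 in forebrain, while *Runx2* had 0.55 and 5.75.

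Markers of other cell types were detected in the forebrain sample as well. Of 4 primitive erythrocyte markers, 4 passed the limit towards forebrain (median difference 11.26), with a summed RPKM of 328 in ES cells and 674938 in forebrain, a range of 2003 to 367633 in forebrain and none at 0. *Hba-x*, *Hbb-bh1*, *Hbb-y* and *Alas2* had 27786, 277516, 367633 and 2003 there. Of 5 endothelial markers 4 passed (median difference 4.53), among them *Emcn* and *Cdh5* with 240 and 326 in forebrain. Their summed RPKM was 602 in ES cells and 1827 in forebrain, with 240 to 601 per gene in forebrain and none at 0. *Pecam1* went the other way, with 551 in ES cells and 317 in forebrain, and stayed within the limit. Of 5 microglia and macrophage markers 4 passed (median difference 3.85), with a sum of 85.9 and 520.3, 33.7 to 261 per gene in forebrain, and *Ptprc* at 0 in ES cells and 68.5 in forebrain. Of 5 neuron markers, 4 passed towards forebrain and 1 towards ES cells (median difference 4.46), with 253 to 3318 per gene in forebrain. *Dcx* and *Elavl4* had 0.19 and 4.87 in ES cells, and 253 and 376 in forebrain, while *Stmn2* had 6910 in ES cells and 1056 in forebrain. Of the 5 forebrain markers 5 passed towards forebrain (median difference 3.89), and of the 6 ES cell markers 6 passed towards ES cells (median difference -8.24). The part of these cell types in the *Dlx* values was not tested.

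**Figure D4:**
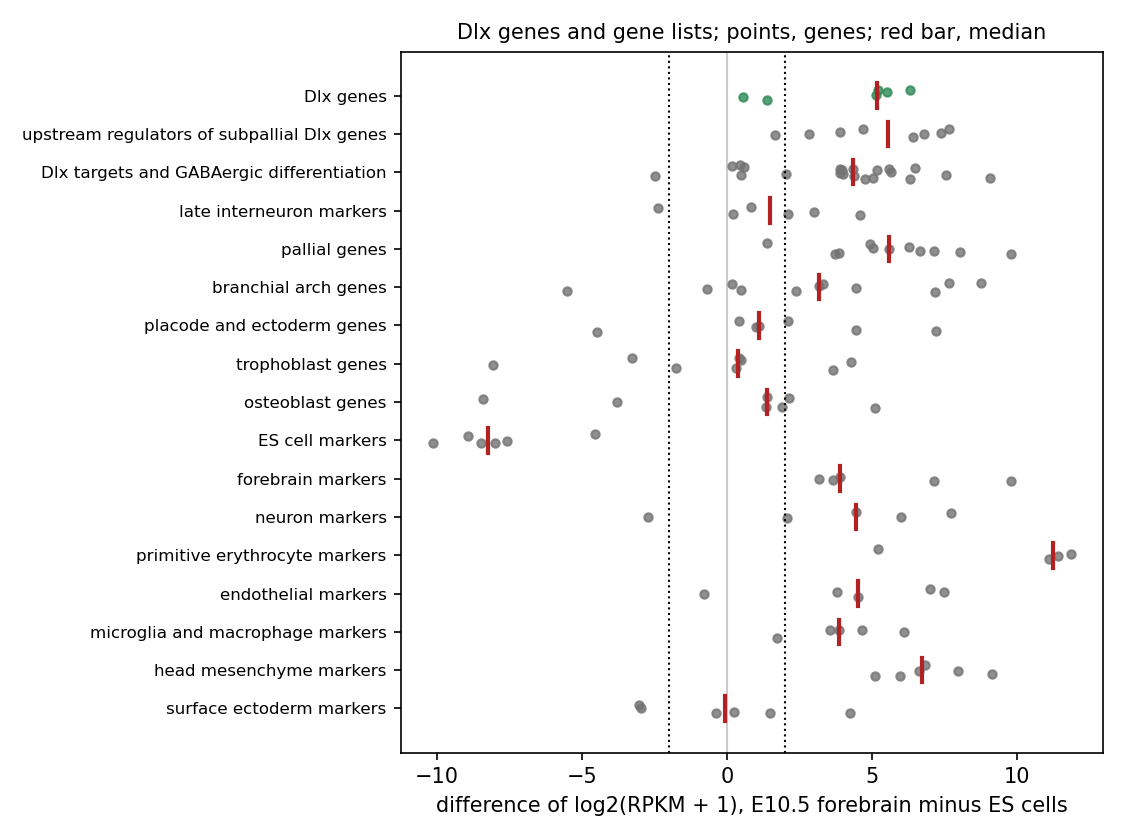
Difference of log2(RPKM + 1), E10.5 forebrain minus ES cells, for the *Dlx* genes (green) and the genes of each list (grey), with 1 library per sample. Red bars are medians and dotted lines the 4-fold limits. The list that holds the upstream regulators has a median of 5.56, and the ES cell markers have a median of -8.24.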

How the data were processed

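RNA-seq of 1 ES cell and 1 E10.5 forebrain library was used, and samples were grouped by their labels. The authors made strand-specific libraries of rRNA-depleted total RNA, mapped reads to NCBIM37 (mm9) with the HTSstation pipeline and deposited RPKM values per gene. The submitters' processing notes name Bowtie 0.12.7. The scaling of the libraries and the use of strand in counting are not given in the sources used here, and the labels and the methods differ in read length.

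All listed genes had the same coordinates in the GENCODE annotation of this build. The step of 1 read was 1.221 RPKM x kb in ES cells and 0.8191 in forebrain, and 66.8% and 69.3% of low values lay within 0.1 read of a whole number. Reads were inferred from this step and rounded, after a check on simulated data. Intervals are exact (Poisson for levels, conditional binomial by Clopper-Pearson for ratios) at 95%. A floor of 3 reads was used for genes at 0. Differences were taken on log2(RPKM + 1), and a call is a difference of at least 2, not a test.

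The members and lists were chosen with earlier results of these data known. Older symbols of the *Tfap2* genes (*Tcfap2a* and its paralogs) were added to the lists after the files were seen, so that these members could be matched. Some listed genes are not reported here and were left out of the lists and their counts. Described are the 6 *Dlx* genes, genes within their loci, the 2 nearest protein-coding genes on each side, up to 4 genes per list with the largest difference, known regulators and targets, and the 5 genes nearest in pattern to the highest member. Not every such gene is described. *Gli1*, *Pvalb*, *Calb2*, *Krt14*, *Hand1*, *Hand2*, *Msx2*, *Gsc*, *Barx1* and *Pecam1* lie outside this rule, as do the remaining markers of both labelled cell types. All of these were named after their values were seen. Alternatives covered pseudocounts, scalings, the call limit, detection limits and gene length. Sequences were read from the NCBIM37 genome and GENCODE transcripts. Computations used scipy 1.17.1, pandas 2.3.3 and numpy 2.4.6 under Python 3.11.15, and plots matplotlib 3.10.9.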

Additional observations from a re-analysis of the deposited data

How the results depend on the processing

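Of 56 alternatives, 4 moved a count by more than 1.5 times or a ratio beyond its counting interval. The 30 alternatives for single members kept the direction and the side of the 4-fold limit for each member, although the pseudocount changed the size of the differences (for *Dlx5*, 8.51 with 0.1 and 3.04 with 5). In addition, 4 members were called higher in forebrain under every pseudocount and scaling (5 with a 2-fold limit, which adds *Dlx3* and which 25.8% of all listed genes passed). In ES cells the number of detected members moved from 2 to 4 with at least 1 read and to 1 with at least 10 reads, and in forebrain from 6 to 5 with at least 10 reads. Without division by gene length, *Dlx1* over *Dlx2* in forebrain became 7.44 and *Dlx5* over *Dlx6* became 0.633, and in ES cells *Dlx1* over *Dlx2* became 9.94, within its wide interval, since the genes differ in exonic length. The ratio of *Dlx5* over *Dlx6* in ES cells had no value, as neither gene had a read. With a pseudocount of 5, 1994 listed genes passed the limit towards ES cells, compared with 3324, and 2850 passed towards forebrain, compared with 4222. Division by the sum of each library moved the median difference of all genes from 0.01 to 0.26. The differences of *Dlx1* and *Dlx2* were then 6.53 and 5.70. Depth limits *Dlx3* and *Dlx4*, and ES cell values of all members, to a few reads. Leaving out a replicate was not possible. No paired analysis was possible because each sample has 1 library.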

Other observations

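The 5 listed genes nearest to *Dlx1* in both libraries (Euclidean distance on log2(RPKM + 1) over 2 samples) were *Epb4.2*, *Scg3*, *Hpse2*, *Plxnd1* and *Zeb2*, at distances of 0.07, 0.17, 0.18, 0.18 and 0.22. *Epb4.2*, which encodes a membrane protein of erythrocytes, had an RPKM of 2.10 in ES cells and 254 in forebrain. *Zeb2*, a target of *Dlx* genes in interneuron migration, had 2.62 and 285, and *Plxnd1*, a semaphorin receptor gene, had 2.29 and 289. With only 2 samples, genes of unlike cell types share such a pattern.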
